A study of Homo sapiens with 8 samples.

Results

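IDO1, UBD, CD86, CD80, CD274, CD40, ICAM1, LGALS9, TNFSF10 and PVR are genes by which epithelial cells can regulate T cells and other immune cells. The 10 symbols were taken by name from the deposited count table of 34415 symbols, and all 10 were found there. They were selected on earlier results of the comparison described here, in which IDO1, UBD and CD86 were already known to be higher after the siRNA to ETV4, so every value of that comparison is given below as a description. Counts above 0 were present for 9 of the 10 genes, and the same 9 passed the filter on low counts, out of 13572 genes tested. The libraries come from HaCaT, an immortalized line of human keratinocytes, at passages 21 to 33. All cultures were held for 96 h in 35 mM glucose, against a basal 5.5 mM, and transfected for 48 h with 1 of 2 small interfering RNAs: siETV4, directed against the ETS-family transcription factor ETV4, in 4 cultures, or the negative control siNC in 4. The knockdown rests on the siRNA labelled siETV4, whose sequence the sources used here do not give, and no second siRNA or rescue was analysed here.

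T cells need a second signal beside the recognition of antigen. CD80 and CD86 on the presenting cell supply it through CD28 and withdraw it through CTLA4, CD274 (PD-L1) restrains activated T cells through PDCD1, and PVR is read by the activating receptor CD226 and the inhibitory receptor TIGIT. IDO1 starts the breakdown of tryptophan to kynurenine, which deprives T cells of tryptophan and yields ligands of the aryl hydrocarbon receptor. UBD encodes FAT10, a ubiquitin-like protein that marks other proteins for the proteasome. In keratinocytes several of these genes are known targets of interferon-gamma, of tumour necrosis factor, or of both.

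The libraries held 35057643 to 41657753 counts. ETV4 stood at 2.61 ± 0.547 CPM (counts scaled to a common library size; SD, n = 4) in siETV4, against 28.2 ± 5.64 CPM (SD, n = 4) in siNC, with siNC replicate 4 the lowest control at 19.8 CPM. That library was also the highest control for IDO1, UBD, CD86, CD274 and TNFSF10 and the lowest for ICAM1, PVR and CD40, and the members' values without it are given where the call changed or the fold change moved by more than 1.5 times. All 12 keratinocyte markers were tested, and their summed level was 5400 to 6007 CPM in siETV4 and 5758 to 6467 CPM in siNC. Of these markers, KRT15 was lower (log2 fold change -0.83, SE 0.10) and KRT17 higher (0.95, SE 0.11) in siETV4, each with an edgeR adjusted p of 0.00636, and their part in the members' values was not tested. Of 7 leukocyte and T-cell markers 4 were at 0 in every library, PTPRC among them, and the sum of all 7 was at most 0.0481 CPM. The Langerhans cell markers CD207, CD1A and CD1C were at 0, and EPCAM, the other gene of that list, stood at 150.1 to 188 CPM. TYROBP and AIF1 of the myeloid list were at 0. CD14 and ITGAM of that list passed the filter on low counts, at 0.193 to 0.856 CPM and 0.222 to 0.990 CPM. Their edgeR adjusted p values were 0.555 and 0.876. LYZ, CSF1R, ITGAX, FCER1G and CD163 had at most 0.246 CPM in any library. The 10 myeloid and dendritic cell markers summed to 14.7 to 15.6 CPM in siETV4 and 13.0 to 16.8 CPM in siNC, of which CD83 alone made 11.97 to 15.20 CPM. In bulk RNA, fewer cells that express a gene and less RNA per cell cannot be told apart.

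The members with counts ranged from the 7.40 to the 94.1 percentile of the tested genes by mean level per transcript length in siNC. On the FPKM scale (fragments per kilobase of transcript, scaled to depth) in siNC, the order was UBD (86.4 ± 7.35), PVR (25.2 ± 2.55), TNFSF10 (12.01 ± 4.41), ICAM1 (5.41 ± 0.342), LGALS9 (3.58 ± 0.429), IDO1 (1.38 ± 0.355), CD86 (0.942 ± 0.199), CD274 (0.394 ± 0.140) and CD40 (0.158 ± 0.0834; SD, n = 4 each), with CD80 listed at 0. Only IDO1 and CD86 had libraries that overlapped among neighbours in this order. In siETV4 UBD lay at the 96.8 percentile and IDO1 at the 48.1 percentile, against 30.2 in siNC. The order was the same in siETV4, but LGALS9 (4.73 ± 0.878 FPKM), IDO1 (4.29 ± 0.683 FPKM) and CD86 (3.12 ± 0.664 FPKM) then lay close together, and each overlapped its neighbour in these 3.

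**Figure D1:**
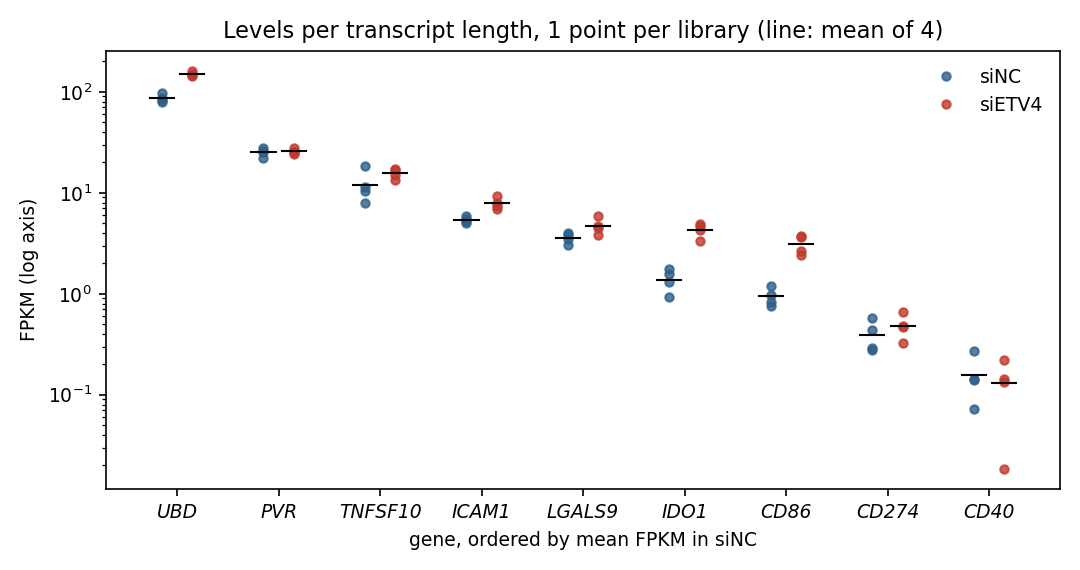
FPKM on a log axis for the 9 members with counts, ordered by their mean in siNC, with 1 point per library (blue siNC, red siETV4) and a line at the mean of 4. UBD is highest at 86.4 FPKM in siNC and 150.1 FPKM in siETV4, and IDO1 and CD86 move up toward LGALS9 in siETV4.

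In the edgeR quasi-likelihood test with Benjamini-Hochberg adjustment, 3 members passed an adjusted p of 0.05 in siETV4 against siNC. IDO1, UBD and CD86, 3 of the 9 tested, were higher, with adjusted p values of 0.00953, 0.00611 and 0.00611. Of all 13572 genes, 16 (0.118%) passed as higher and 16 (0.118%) as lower. Since these genes were selected on this contrast, nothing is read from that count. Positive log2 fold changes were found for 7 of the 9 members, with a median of 0.36, beside 48.4% positive and a median of -0.01 over all tested genes.

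CD86, a B7-family ligand that engages CD28 and CTLA4, had 327, 298, 430 and 456 counts in siETV4 replicates 1 to 4 and 103, 79, 119 and 145 counts in siNC replicates 1 to 4. Scaled to library size, these were 7.86, 7.34, 10.3 and 11.01 CPM against 2.51, 2.35, 3.00 and 3.51 CPM. The groups did not overlap, and the lowest siETV4 library was 2.09 times the highest siNC library. The log2 fold change was 1.68 (SE 0.20), a 3.21-fold difference with a 95% interval of 2.38 to 4.32, and CD86 ranked 19th of the 13572 genes by fold change. CD86 spans 122055362 to 122121136 of chromosome 3 (GRCh38.p14) and overlaps ILDR1, which held 30 to 53 counts per library and had a log2 fold change of -0.37 (SE 0.29). CD80, the other ligand of CD28, had 0 counts in all 8 libraries, which allows at most 0.0720 to 0.0856 CPM (3 counts of a library, counting error only). CD80 spans 119524293 to 119559614 of the same chromosome, and TIMMDC1, which overlaps it, had 4274 to 5123 counts per library. No count was assigned to CD80 in either group, and without a stated strand setting reads in these overlaps cannot be assigned to one gene with certainty.

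IDO1, the enzyme that opens the kynurenine pathway, had 354, 255, 361 and 320 counts in siETV4 replicates 1 to 4 and 120, 60, 98 and 130 counts in siNC replicates 1 to 4. These correspond to 8.51, 6.28, 8.69 and 7.72 CPM against 2.93, 1.78, 2.47 and 3.15 CPM. Again the groups did not overlap, with siETV4 replicate 2 and siNC replicate 2 the lowest of their groups. The log2 fold change was 1.59 (SE 0.20), or 3.01-fold with a 95% interval of 2.21 to 4.09. When 1 library was left out the log2 fold change of IDO1 ranged from 1.45 to 1.70, and its edgeR adjusted p passed in 7 of 8 such runs. The exception was the run without siETV4 replicate 3 (edgeR adjusted p 0.0513). IDO1 lies on chromosome 8 from 39913891 to 39928790 (GRCh38.p14), with no other gene of the RefSeq table across it.

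UBD was the most abundant member per length and had the smallest relative spread of the 3. Its counts were 5430, 5391, 5776 and 5240 in siETV4 replicates 1 to 4 and 2954, 2618, 3156 and 3480 in siNC replicates 1 to 4, or 131, 133, 139 and 126 CPM against 72.1, 77.8, 79.5 and 84.3 CPM. The groups did not overlap. Its log2 fold change of 0.75 (SE 0.08) is a 1.69-fold difference (95% interval 1.48 to 1.92). UBD ranked 258th of 13572 genes by fold change and 3rd by p value. It spans 29555515 to 29559732 of chromosome 6 (GRCh38.p14), where the RefSeq table also places the olfactory receptor gene OR2I1, a symbol not used here.

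ICAM1, the adhesion ligand through which T cells hold on to keratinocytes, did not overlap between groups but missed the threshold. It stood at 21.8, 23.7, 19.9 and 26.9 CPM in siETV4 replicates 1 to 4 and at 16.5, 15.6, 17.8 and 15.4 CPM in siNC replicates 1 to 4. The log2 fold change was 0.50 (SE 0.13; 95% interval 0.22 to 0.78) with an edgeR adjusted p of 0.192. Groups that do not overlap, higher in siETV4, were found for 4 of the 9 members (IDO1, UBD, CD86 and ICAM1) and for 2.62% of all tested genes, and the members' selection bears on that count as well. With DESeq2 the adjusted p of ICAM1 was 0.0131. Without siNC replicate 4 its log2 fold change was 0.47 (SE 0.13; edgeR adjusted p 0.0305). ICAM1 spans 10271120 to 10286615 of chromosome 19 (GRCh38.p14, as for the positions that follow).

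**Figure D2:**
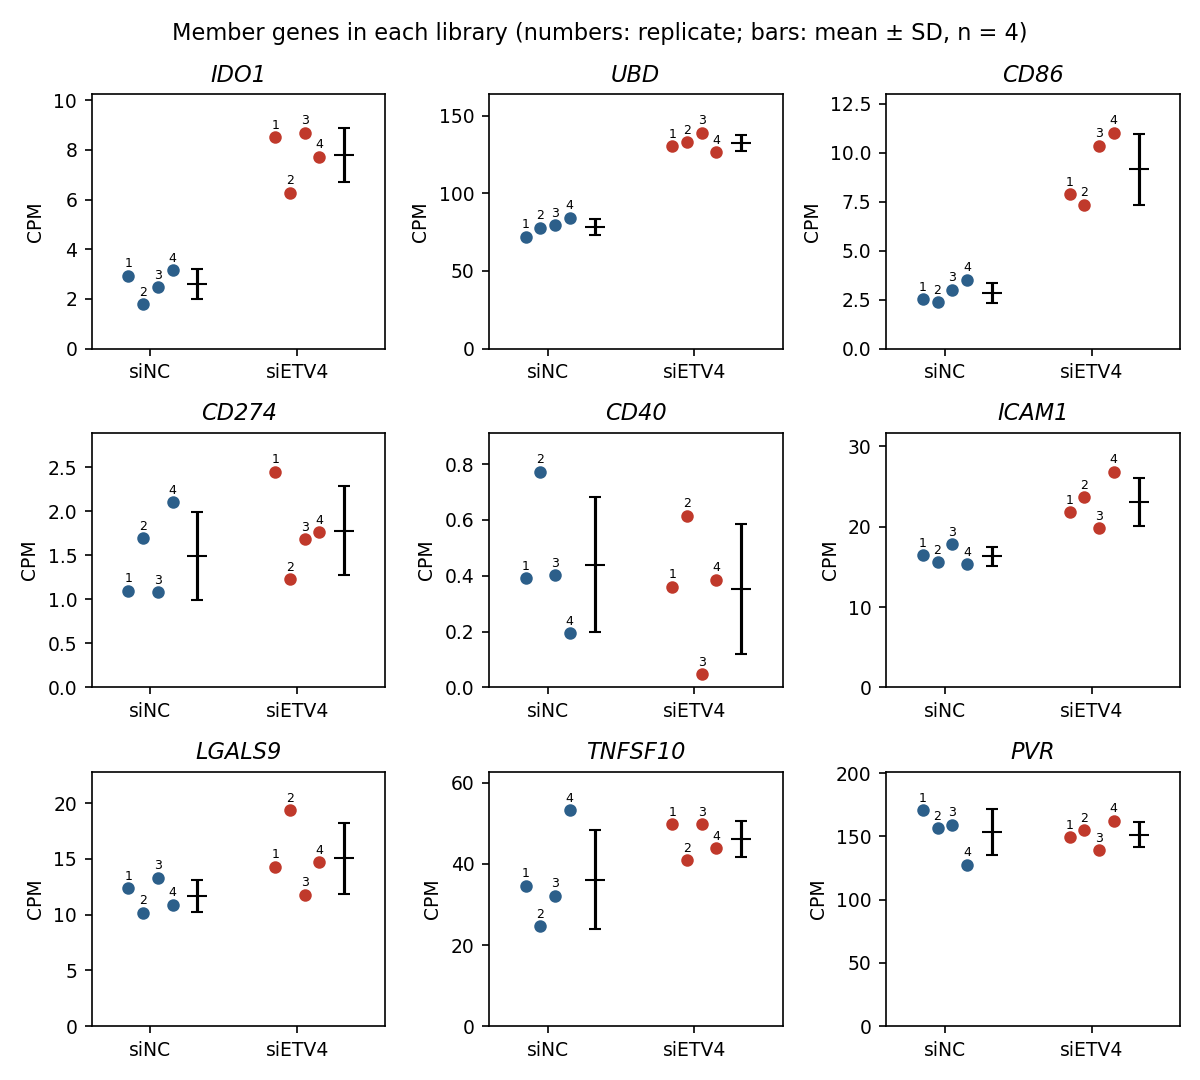
CPM of the 9 members with counts in each library, with replicate numbers above the points and the mean ± SD (n = 4) beside each group, every axis starting at 0. IDO1, UBD, CD86 and ICAM1 separate the groups, while siNC replicate 4 lies at the top of its group for TNFSF10 (53.2 CPM) and at the bottom for PVR (127.7 CPM).

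TNFSF10 (TRAIL), a ligand that triggers apoptosis through death receptors, had a control library far from the other 3. It stood at 49.8, 41.0, 49.9 and 43.9 CPM in siETV4 replicates 1 to 4, and at 34.6, 24.6, 32.2 and 53.2 CPM in siNC replicates 1 to 4. Replicate 4 of siNC was thus above every siETV4 library, and the other 3 controls were below all of them. The log2 fold change was 0.35 (SE 0.20; edgeR adjusted p 0.480) with all libraries and 0.60 (SE 0.13; edgeR adjusted p 0.0149) without siNC replicate 4. Without that library and with GC content and length trends removed it was 0.23 (SE 0.11; edgeR adjusted p 0.227). TNFSF10 spans 172505508 to 172523430 of chromosome 3.

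LGALS9, a galectin that binds inhibitory receptors of T cells, stood at 14.3, 19.3, 11.8 and 14.7 CPM in siETV4 replicates 1 to 4 and at 12.4, 10.2, 13.3 and 10.9 CPM in siNC replicates 1 to 4. The groups overlapped through siETV4 replicate 3, and the log2 fold change of 0.36 (SE 0.17; 95% interval -0.00 to 0.73) did not pass (edgeR adjusted p 0.400). LGALS9 spans 27631188 to 27649560 of chromosome 17. LGALS9B and LGALS9C are near-identical copies, and the sources used here do not say how their reads were shared.

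CD274, the ligand of PDCD1, was low and uneven, at 2.45, 1.23, 1.68 and 1.76 CPM in siETV4 replicates 1 to 4 and 1.10, 1.70, 1.08 and 2.11 CPM in siNC replicates 1 to 4. The groups overlapped (log2 fold change 0.25, SE 0.31; 95% interval -0.42 to 0.92), and the value was 0.47 (SE 0.32) without siNC replicate 4. CD40, the receptor through which T cells license presenting cells, had 2 to 25 counts per library in siETV4 and 8 to 26 in siNC. At this depth its log2 fold change of -0.30 (SE 0.63) has a 95% interval of -1.69 to 1.08, and it changed sign without siETV4 replicate 3 (0.06) or siNC replicate 2 (0.10). Without siNC replicate 4 it was -0.55 (SE 0.65). CD274 spans 5450542 to 5470554 of chromosome 9 and CD40 46118314 to 46129858 of chromosome 20.

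PVR, the ligand of TIGIT and CD226, was the most abundant member in counts and differed least. It stood at 149, 155, 139 and 162 CPM in siETV4 replicates 1 to 4 and at 170, 157, 159 and 128 CPM in siNC replicates 1 to 4. Its log2 fold change was -0.02 (SE 0.10), with a 95% interval of -0.24 to 0.21, or 0.845 to 1.15 as a fold. Without siNC replicate 4 the log2 fold change was -0.10 (SE 0.08), and with GC content and length trends removed it was 0.11 (SE 0.06). PVR spans 44643910 to 44666162 of chromosome 19, where the overlapping gene CEACAM19 had 33 to 104 counts per library.

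The members differ in the GC content of their transcripts. The longest annotated transcripts of IDO1, UBD, CD86, CD274 and TNFSF10 have 40.2 to 43.5% GC, and those of ICAM1, LGALS9 and PVR have 54.0 to 56.9%. With each library's GC content and length trend removed, the log2 fold changes of IDO1 (1.37, SE 0.17), UBD (0.58, SE 0.06) and CD86 (1.52, SE 0.17) were smaller and still past the threshold. Those of TNFSF10 (0.15, SE 0.11) and CD274 (0.05, SE 0.26) were also smaller, and neither passed. Those of ICAM1 (0.62, SE 0.10), LGALS9 (0.47, SE 0.13) and PVR (0.11, SE 0.06) were larger, and ICAM1 passed (edgeR adjusted p 0.00711).

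In that fit 4 of the 9 members passed as higher, beside 0.882% of all tested genes higher and 0.874% lower. Without siNC replicate 4 it was 5 of the 9 (IDO1, UBD, CD86, ICAM1 and TNFSF10), beside 12% of all tested genes higher and 4.88% lower.

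**Figure D3:**
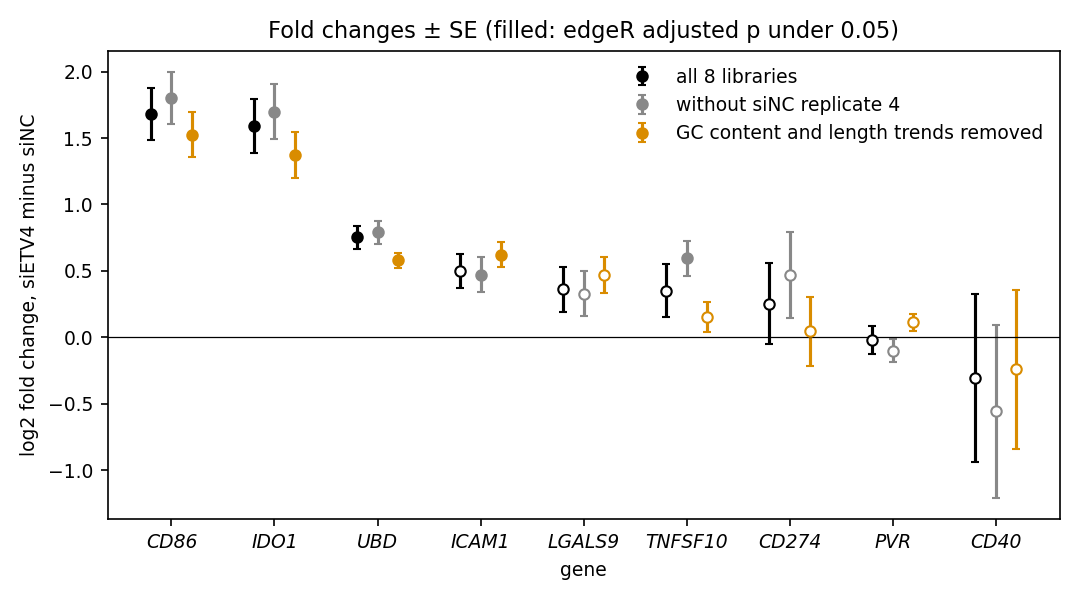
Log2 fold change (siETV4 minus siNC) ± SE of the 9 tested members in edgeR with all 8 libraries (black), without siNC replicate 4 (grey) and with GC content and length trends removed (orange), where filled points have an adjusted p under 0.05. CD86, IDO1 and UBD are filled in all 3, ICAM1 in both of the alternatives and TNFSF10 only without siNC replicate 4.

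Windows of 250 bases before the annotated starts were searched for known binding motifs. Of the members called higher, they cover UBD and CD86 but not IDO1. RefSeq windows (GRCh38.p14) were searched for 8 of the 10 genes, with 2 windows for CD86. No window of IDO1 or CD40 was searched, so motifs before these genes were not tested. Both strands were searched for the core of the interferon-stimulated response element (ISRE, GAAA and again GAAA after 2 bases of any kind), the gamma-activated site (GAS, TTCNNNGAA), the kappaB consensus of NF-kB, and 2 ETS motifs, AGGAAG as preferred by PEA3 factors and CCGGAA. A GAS match can contain a whole CCGGAA match, on either strand. Of 35116 windows in the table, 3.02% held the ISRE core, 6.57% the GAS, 9.96% the kappaB consensus, 28.7% AGGAAG and 14.5% CCGGAA. The windows of UBD, CD86, ICAM1 and CD274 are shown 5′ to 3′ on the gene's strand, ending at the base before the start, with motif matches in capitals.
UBD, chr6:29559733-29559982, minus strand: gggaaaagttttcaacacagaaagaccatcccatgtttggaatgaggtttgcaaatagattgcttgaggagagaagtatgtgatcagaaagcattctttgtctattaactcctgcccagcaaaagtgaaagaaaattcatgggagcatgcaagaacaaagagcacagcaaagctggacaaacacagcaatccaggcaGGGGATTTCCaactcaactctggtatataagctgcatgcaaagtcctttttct
CD86 first start, chr3:122055112-122055361, plus strand: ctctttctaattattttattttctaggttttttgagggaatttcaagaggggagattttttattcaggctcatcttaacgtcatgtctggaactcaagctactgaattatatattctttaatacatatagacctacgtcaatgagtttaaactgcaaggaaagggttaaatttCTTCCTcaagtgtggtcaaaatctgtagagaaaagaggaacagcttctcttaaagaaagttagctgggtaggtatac
CD86 second start, chr3:122077534-122077783, plus strand: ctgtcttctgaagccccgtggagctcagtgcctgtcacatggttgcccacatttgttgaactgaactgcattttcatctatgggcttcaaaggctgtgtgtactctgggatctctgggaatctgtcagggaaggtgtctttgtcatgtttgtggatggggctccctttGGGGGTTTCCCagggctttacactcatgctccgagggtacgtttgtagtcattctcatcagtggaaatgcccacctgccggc
ICAM1, chr19:10270870-10271119, plus strand: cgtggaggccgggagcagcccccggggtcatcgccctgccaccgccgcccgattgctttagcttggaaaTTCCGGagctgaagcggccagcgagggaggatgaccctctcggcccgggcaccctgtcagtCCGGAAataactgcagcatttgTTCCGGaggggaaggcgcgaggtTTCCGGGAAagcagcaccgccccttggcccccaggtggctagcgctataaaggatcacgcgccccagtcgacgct
CD274, chr9:5450292-5450541, plus strand: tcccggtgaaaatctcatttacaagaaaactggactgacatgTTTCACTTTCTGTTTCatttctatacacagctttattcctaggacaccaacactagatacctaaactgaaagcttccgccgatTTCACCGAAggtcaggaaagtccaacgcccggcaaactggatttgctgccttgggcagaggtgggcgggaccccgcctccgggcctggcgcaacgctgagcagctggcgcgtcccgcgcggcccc

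The capitals in UBD are a kappaB match that begins 53 bases before the start, and no ISRE core, GAS or ETS match was found in that window. The first CD86 window held 1 AGGAAG match, on the opposite strand, and the second held overlapping kappaB matches that begin 82 and 81 bases before that start. ICAM1 held a GAS match from 75 bases before the start and 4 CCGGAA matches, 1 of which lies within the GAS match. CD274, whose fold change did not pass, held overlapping ISRE cores that begin 208 and 202 bases before the start, and a GAS match. The TNFSF10 window, not shown, held an ISRE core that begins 187 bases before the start and 1 AGGAAG match. LGALS9 and PVR each held 1 AGGAAG match and CD80 none of the 5 motifs. A match describes the letters and not the binding of a factor.

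Beyond the members, the related genes were read from lists by role, chosen with earlier results of these data known, and none of their non-members passed the threshold. With 0.118% of all genes higher and 0.118% lower, a count of 0 in lists of this size lies near the background and is no result about a list. Among the B7-family ligands 8 of 10 were tested and 1, CD86, was higher, with a median log2 fold change of 0.34. CD276, an abundant B7 ligand with inhibitory and activating effects reported, stood at 120 against 142 CPM (log2 fold change -0.24, SE 0.10). PDCD1LG2, the second ligand of PDCD1, stood at 2.17 against 1.45 CPM (0.58, SE 0.33; named after its values were seen). The nectin list, to which PVR belongs, had 0 of 5 past the threshold and a median of -0.13. NECTIN1, an adherens-junction nectin, had 369 CPM in siETV4 against 495 CPM in siNC, with groups that did not overlap (log2 fold change -0.42, SE 0.10, edgeR adjusted p 0.174). It passed without siNC replicate 4 (edgeR adjusted p 0.0185) and with the trends removed (edgeR adjusted p 0.0402).

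Costimulatory ligands and receptors of the TNF family, among them CD40, had 0 of 6 tested genes past the threshold and a median of 0.29. TNFSF9, the ligand of the receptor 4-1BB, had a log2 fold change of 0.31 (SE 0.12), and CD70, the ligand of CD27, of 0.27 (SE 0.12). Both passed as higher with the trends removed (edgeR adjusted p 0.0237 and 0.0214). TRAIL and its death receptors had 0 of 8 past the threshold, with all 8 fold changes positive (7 of 8 in either alternative) and a median of 0.13. TNFRSF10B, a death receptor for TRAIL, had a log2 fold change of 0.06 (SE 0.11), and of -0.01 without siETV4 replicate 4. None of the 8 CD40 signalling adaptors passed (median 0.07), with BIRC2, a ubiquitin ligase of these complexes, at 0.23 (SE 0.23). BIRC2 was at 0.53 (SE 0.155, edgeR adjusted p 0.0364) without siNC replicate 4, and at 0.08 (SE 0.09) when the trends were removed as well.

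Of 7 tested kynurenine and tryptophan genes 1 passed, IDO1 itself, and the median was 0.18. WARS1, the tryptophanyl-tRNA synthetase, stood at 291 against 281 CPM (log2 fold change 0.05, SE 0.08), and KYAT3, a kynurenine aminotransferase, had a log2 fold change of 0.18 (SE 0.17), and of 0.35 (SE 0.13) without siNC replicate 4. KYNU, which cleaves kynurenine and was named after its values were seen, stood at 21.6 against 15.1 CPM (0.52, SE 0.24). KYNU passed without siNC replicate 4 (edgeR adjusted p 0.0234) and not with the trends removed (edgeR adjusted p 0.206). Of 6 tested genes of the aryl hydrocarbon receptor 0 passed, with TIPARP, a receptor target, at 0.18 (SE 0.16) and NQO1, a target shared with NRF2, at -0.23 (SE 0.10). Without siNC replicate 4 TIPARP was at 0.35 (SE 0.12, edgeR adjusted p 0.0566) and NQO1 at -0.29 (SE 0.09, edgeR adjusted p 0.0406). The receptor gene AHR, named after its values were seen, was then at 0.55 (SE 0.12, edgeR adjusted p 0.0154). When the trends were removed as well AHR was at 0.12 (SE 0.10).

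In the FAT10 list 1 of 13 tested genes, UBD, passed the threshold, and the median was 0.08. UBA6, the enzyme that activates FAT10, had a log2 fold change of 0.29 (SE 0.32), and UBE2Z, the conjugating enzyme that takes FAT10 from UBA6, of -0.19 (SE 0.10; both named after their values were seen). UBA6 was at 0.71 (SE 0.21, edgeR adjusted p 0.0375) without siNC replicate 4 and at 0.25 (SE 0.12) when the trends were removed as well. In that last fit UBE2Z was at -0.31 (SE 0.07, edgeR adjusted p 0.0165). SQSTM1, an autophagy receptor to which FAT10 can be attached, had a log2 fold change of 0.18 (SE 0.11) and passed with the trends removed (edgeR adjusted p 0.0270).

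Genes upstream in the interferon-gamma pathway had 0 of 14 past the threshold and a median of 0.05. IRF1, a transcription factor that interferon-gamma induces and that acts on several member genes, had 175 CPM in siETV4 against 208 CPM in siNC (log2 fold change -0.25, SE 0.08), with every siETV4 library below every siNC library. IFNGR1, a chain of the interferon-gamma receptor, had a log2 fold change of 0.49 (SE 0.19), and of 0.72 (SE 0.125, edgeR adjusted p 0.00742) without siNC replicate 4. IRF1 passed without that library too (edgeR adjusted p 0.0263). Neither IFNGR1 nor IRF1 passed with the trends removed and all 8 libraries. IRF9, a subunit of the complex downstream of type I interferon, had 0.60 (SE 0.12) and groups that did not overlap, and it passed with the trends removed (edgeR adjusted p 0.00360). IFNGR1 and IRF9 were named after their values were seen. The adhesion ligands (0 of 6, median 0.12), galectins (0 of 4, median 0.19) and regulators of PD-L1 protein (0 of 9, median 0.25) gave no call either, nor did ligands of natural killer cells (0 of 7, median -0.02) and secreted or surface immunosuppressive factors (0 of 8, median 0.14). ALCAM, LGALS1, LGALS3 and COPS5 had log2 fold changes of 0.21 (SE 0.26), -0.31 (SE 0.13), 0.12 (SE 0.10) and 0.26 (SE 0.13). With the trends removed COPS5 was at 0.01. Without siNC replicate 4, where 12% of all genes were higher and 4.88% lower, these lists held calls: 2 of 6 adhesion ligands higher, 1 of 4 galectins higher and 1 lower, 5 of 9 regulators of PD-L1 protein higher and 3 of 8 immunosuppressive factors higher. ALCAM was then at 0.58 (SE 0.16, edgeR adjusted p 0.0279). Of the other genes named, CD276 (edgeR adjusted p 0.0335) and LGALS1 (0.0404) then passed as lower, and COPS5 (0.0440) and TNFSF15 (0.0108) as higher. In the fit with the trends removed and all 8 libraries ICAM1 was the only call in these 4 lists.

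**Figure D4:**
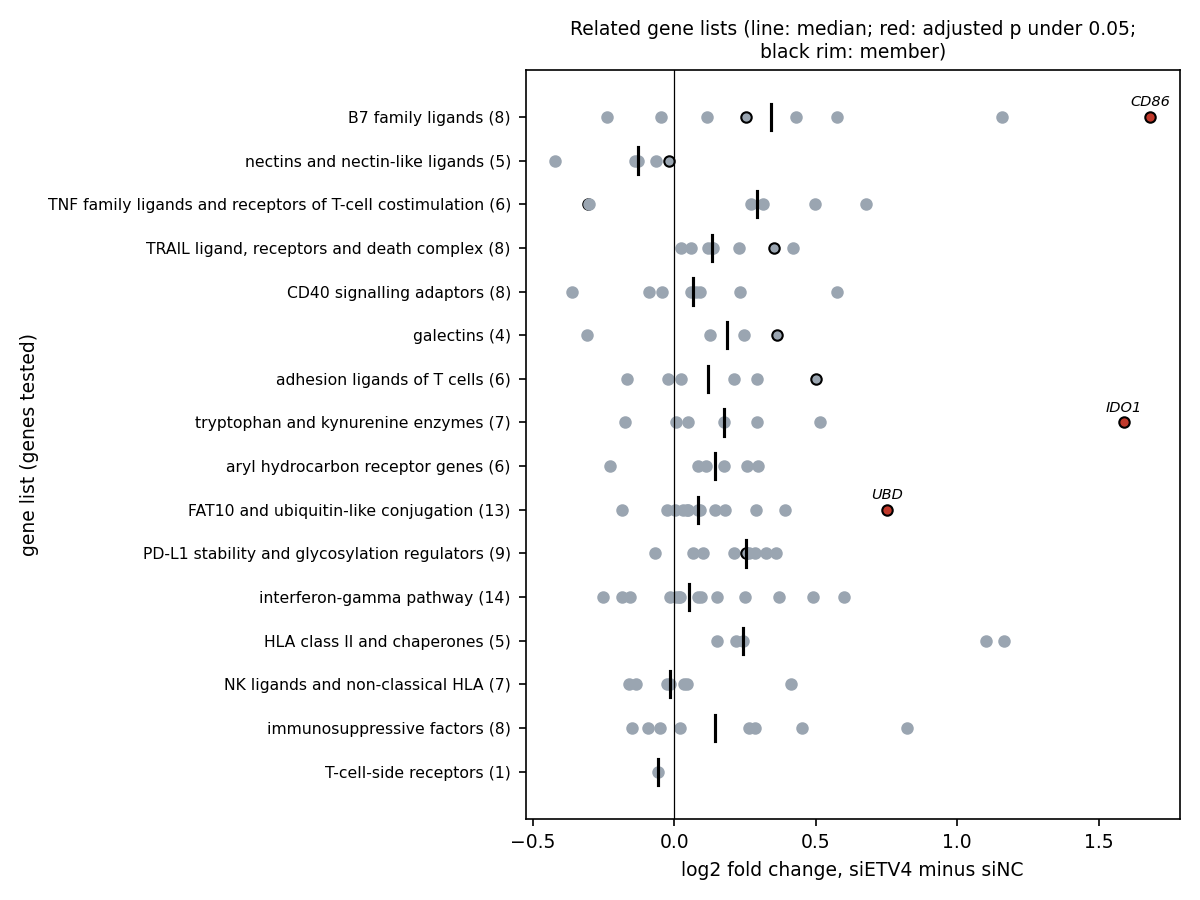
Log2 fold change (siETV4 minus siNC) of each tested gene in 16 related lists, with the number tested in brackets, a line at the median, red for an edgeR adjusted p under 0.05 and a black rim for members. CD86, IDO1 and UBD are the red points, each at the right end of its list.

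The genes whose log2 CPM over the 8 libraries was most like that of IDO1, among 10986 genes compared, were RPP40 (Pearson's r 0.98, Spearman's rho 0.98), MMP7 (0.98 and 0.95) and MACO1 (0.98 and 0.98). For UBD they were GLIPR1 (0.99 and 0.98), MED6 (0.98 and 0.95) and THEM4 (0.98 and 0.81). For CD86 they were TNFSF15 (0.98 and 0.93), C1S (0.98 and 0.90) and RPP40 (0.97 and 0.95). All of these correlations contain the difference between the groups. On deviations from the group means r was 0.66 to 0.87 for these pairs except UBD with THEM4, where it was -0.01. The pairs were picked as the highest over the same 8 libraries, so these values carry that selection and are a description only. MMP7, a secreted matrix protease (1.17, SE 0.13), GLIPR1 (1.32, SE 0.20) and C1S, a protease of the classical complement pathway (0.98, SE 0.15), were higher by log2 fold change with edgeR adjusted p values of 0.00611, 0.0219 and 0.0219. GLIPR1 and C1S each passed in 2 of the 8 fits that left out 1 library, with adjusted p values up to 0.117 and 0.115. TNFSF15, a TNF-family costimulator of T cells, had 11.2 ± 1.06 CPM in siETV4 against 7.03 ± 0.557 CPM in siNC (SD, n = 4 each; log2 fold change 0.68, SE 0.13).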

How the data were processed

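RNA of 4 siETV4 and 4 siNC cultures was sequenced, and groups and replicate numbers come from the sample titles. The authors deposited raw counts per gene symbol and FPKM values for the same libraries. The submitters' processing notes name hg38 and R 3.2.0. The sources used here do not give the aligner, the counter, the annotation or whether strand was used. Each deposited FPKM equals count over library total and gene length, with 1 length per gene for 20584 of 20585 genes (relative tolerance 1e-06).

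Counts were fitted in R 4.3.3 with edgeR 4.0.16 (filterByExpr, minimum count 10; TMM factors; quasi-likelihood test). P-values were adjusted over the 13572 genes tested (Benjamini-Hochberg), with 0.05 as threshold. Standard errors are the fold change over the root of the F statistic. Intervals use the t distribution with the fit's degrees of freedom. The fit was tested on simulated data. GC content comes from the longest GENCODE v29 transcript. With offsets from splines with 5 degrees of freedom on GC content and log length, 12470 genes (91.9%) were tested. Alternatives included DESeq2 1.42.0, limma 3.58.1 (voom, and log2 of FPKM plus 1 or 0.1, mean FPKM at least 0.5), other scalings and filters, and left-out libraries. P-values measure the spread between these cultures of 1 cell line.

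The members and all gene lists were chosen with earlier results of these data known. Named genes are the members, ETV4, up to 3 called or the 2 most abundant non-members of each list, and the 3 genes most like IDO1, UBD and CD86 (mean log2 CPM at least 1, prior count 2). Not all are printed, 1 gene seen in the data is not reported here, and others are said to be named after their values were seen.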

Additional observations from a re-analysis of the deposited data

Results flagged for a closer look

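No library of a member gene passed Dixon's criterion within its group, the gap to the nearest other library over the group's range. Among the other genes named, 8 of the 90 groups tested, members included, passed it. Chance gives about 1 in 20 for independent groups. These groups share the same 8 libraries, and some genes were named after their values were seen, so nothing is read from that share. In siNC replicate 4 the ratio was 0.970 for IRF1, the lowest of its group, and 0.897 for KYAT3, 0.869 for IFNGR1, 0.868 for BIRC3, 0.868 for MED6 and 0.839 for ALCAM, each the highest of its group. In siETV4 replicate 2 it was 0.860 for HLA-DQB1 and 0.841 for LGALS1, both the highest of their group. The cause was not tested.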

How the results depend on the processing

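The calls of IDO1, UBD and CD86 were recomputed under 20 alternatives, and those of CD274 and CD40 under 18 and 17, since filters removed them from the rest. CD86 passed in all of them, IDO1 in all but the one without siETV4 replicate 3 (edgeR adjusted p 0.0513), and UBD in all but the replicate block (log2 fold change 0.75, edgeR adjusted p 0.0683). The number of members called was 3 as reported, 2 with the replicate block, and 2 to 5 without 1 library, with 5 reached without siNC replicate 4. The count over all genes was 32, and it became 54 with no filter, 223 with DESeq2, 59 with limma on log2(FPKM + 1) and 59 on log2(FPKM + 0.1). It was 219 with GC content and length offsets, 821 with those offsets and siNC replicate 4 left out, and 9 to 2327 without 1 library, the highest value without siNC replicate 4. The replicate block gave 4 calls and, with the offsets, 100. Correlations of deviations from the group means were -0.09, 0.30, -0.14 and -0.19 for same-numbered libraries, and -0.40 to 0.39 for differently numbered ones. The sample titles do not say whether the numbers pair the cultures, and these few correlations cannot decide it.

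The sign of PVR changed with library size alone (0.0264, where the median of all genes moved alike, from -0.01 to 0.03), on log2(FPKM + 1) (0.0292) and log2(FPKM + 0.1) (0.0303), with the offsets (0.114), with the replicate block and offsets (0.117), and with offsets and siNC replicate 4 left out (0.0619). Without 1 library PVR ranged from -0.0982 to 0.0350, CD40 from -0.712 to 0.0990 and TNFRSF10B from -0.00863 to 0.106. COPS5 was at -0.0219 with offsets and siNC replicate 4 left out. The cause was not tested. Depth limits CD40, with 2 to 26 counts per library, and CD80, with none.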

Other observations

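HLA class II genes, which present antigen to CD4 T cells beside CD86, had 0 of 5 tested genes past the threshold, with all 5 fold changes positive and a median log2 fold change of 0.24. HLA-DQB1 had 34.6 CPM in siETV4 against 29.2 CPM in siNC, with groups that did not overlap (log2 fold change 0.24, SE 0.12), and HLA-DMA, a peptide-loading chaperone, at 3.73 and 3.36 CPM (0.15, SE 0.18). HLA-DRB1 stood at 0.758 and 0.351 CPM (1.10, SE 0.39, edgeR adjusted p 0.324), also without overlap. VTCN1, a B7-family inhibitor of T cells, stood at 1.58 and 0.704 CPM (1.16, SE 0.40, edgeR adjusted p 0.314), and BIRC3, an NF-kB target among the CD40 adaptors, at 45.1 and 30.3 CPM (0.57, SE 0.31). Both passed without siNC replicate 4 (edgeR adjusted p 0.0214 and 0.00935) and not once trends of GC content and length were removed (edgeR adjusted p 0.197 and 0.127). When that library was left out and the trends were removed as well, VTCN1 was at 1.41 (edgeR adjusted p 0.0496) and BIRC3 at 0.54 (edgeR adjusted p 0.00527). HLA-DRB1, VTCN1 and BIRC3 were named after their values were seen. The T-cell-side receptors, which keratinocytes are not known to use, were at 0 for 6 of 11 genes. Only 1 of the 11, ITGB2, passed the filter on low counts. It stood at 1.61 to 2.79 CPM over all libraries (log2 fold change -0.06) and was named after its values were seen.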
